A study of Mus musculus with 20 samples.

Results

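Nuclei that met a count rule for Cnr1/Cck basket-type interneurons were few in these libraries of the mouse hippocampus. There were 118 members among 160777 nuclei (0.0734%) and among 3672 GABAergic nuclei (3.21%). These shares depend on the rule and on depth, and do not measure how common the cells are. The members were chosen on their raw counts of 13 genes. A member had Gad1 and Gad2 summing to at least 2 unique molecular identifiers (UMIs, each the tag of 1 captured RNA molecule), at least 3 UMIs of Cnr1 and at least 1 of Cck, no UMI of Vip, Sst, Pvalb or Lhx6, at most 1 of Lamp5, and none of the glial genes Mog, Pdgfra, Csf1r and Aqp4. Levels of these 13 genes in the members are therefore a description of the choice, and no test was run on them. GABAergic nuclei are those with the same minimum of Gad1 and Gad2 and without the 4 glial genes. Excitatory nuclei are those with at least 2 UMIs of Slc17a7, no UMI of Gad1 or Gad2, and without the 4 glial genes.

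Gad1 and Gad2 encode the enzymes that make the inhibitory transmitter GABA, Cnr1 the cannabinoid receptor CB1, and Cck the neuropeptide cholecystokinin. In the hippocampus, CCK-expressing basket cells arise from the caudal ganglionic eminence and place their synapses around the cell bodies of pyramidal neurons. Their terminals carry CB1 receptors at high density, and endocannabinoids released by the postsynaptic neuron act on these receptors to reduce GABA release, a form of retrograde control that the parvalbumin-expressing basket cells lack.

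The study profiled nuclei of the hippocampus of 20 male mice by droplet single nuclei RNA-sequencing, with 1 library per mouse, to compare the wake state with anesthesia in wild-type (WT) mice and in a model of familial Alzheimer's disease. By their labels 6 mice were WT and awake, 3 APP/PS1 and awake, 3 WT under isoflurane, 4 APP/PS1 under isoflurane, 2 WT under ketamine and 2 APP/PS1 under ketamine. The design text of the series gives other sizes for the wake and isoflurane groups, namely 5 WT and 4 APP/PS1 mice awake and 4 WT and 3 APP/PS1 mice under isoflurane, and the labels of the single samples were followed. APP/PS1 mice carry the APPSwe and PS1ΔE9 transgenes, WT mice were their littermates, and the labels give an age of 4.5 to 5.5 months. Isoflurane was given at 5% and then kept at 1.5%, ketamine at 150 mg/kg together with xylazine at 12 mg/kg, each for 3 h, so that ketamine and xylazine cannot be told apart. The transgenes of this line are driven by the mouse prion promoter and carry parts of the Prnp gene, so Prnp counts bear on the labels. Summed over excitatory nuclei, Prnp was 36.1 to 409 counts per 1000000 UMIs (CPM, median 133) in the 9 mice labelled APP/PS1 and 26.5 to 130 (median 47.7) in the 11 mice labelled WT, and 4 of the 9 did not exceed the highest WT mouse. Groups are named as labelled for both reasons, and every comparison of state or genotype rests on these labels.

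Total counts were 9243992 to 25394891 UMIs per mouse over 4743 to 10877 nuclei. The libraries of mice 1, 2, 3 and 4, 1 from each of the 4 wake and isoflurane groups, stood apart. They had a median of 1718 to 3169 UMIs per nucleus against 1235 to 1840 in the other 16 mice, 0.939% to 1.78% of their UMIs in mitochondrially encoded genes against 0.0353% to 0.336%, and 3.09% to 3.84% of their nuclei were GABAergic against 1.46% to 3.28%. Of the 157472 distinct cell barcodes, 3251 occurred in more than 1 library, pairs of libraries shared 5 to 35 of them, and no barcode was a member in more than 1 library.

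The rule narrowed the nuclei in steps. The minimum of Gad1 and Gad2 left 4093 nuclei, the minimum of Cnr1 left 406 and that of Cck left 208. Removing nuclei with Vip left 173, with Sst 151, with Pvalb 144, with more than 1 UMI of Lamp5 141, with Lhx6 140 and with a glial UMI 118. The largest single losses after the GABAergic step were thus at Cnr1 and Cck, and the markers of other interneuron classes removed fewer nuclei at each step.

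Members were found in 17 of the 20 mice, unevenly. Mouse 3 gave 18, mouse 1 gave 14, mice 2 and 4 gave 11 each, mice 13 and 14 gave 8 each, mouse 10 gave 7, mice 15 and 17 gave 6 each, mice 16 and 25 gave 5 each, mice 18, 28 and 29 gave 4 each, mouse 19 gave 3, and mice 20 and 26 gave 2 each. Mice 11, 12 and 27 gave none, among 150, 120 and 79 GABAergic nuclei. Mice 1 to 4 thus held 54 of the 118 members (45.8%) with 17.4% of all nuclei and 26.6% of the GABAergic nuclei. Their share of members among GABAergic nuclei was 4.44% to 6.82%, above the 0% to 4.23% of every other mouse. Nuclei under 2000 UMIs were then left out and the others thinned to 2000 UMIs in a single random draw. The shares then overlapped, at 5.41%, 2.30%, 3.28% and 0% in mice 1, 2, 3 and 4 and 0% to 4.17% in the others. The median stayed higher in mice 1 to 4, at 2.79% against 1.38%, with 14 members left there and 16 in the others.

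**Figure D1:**
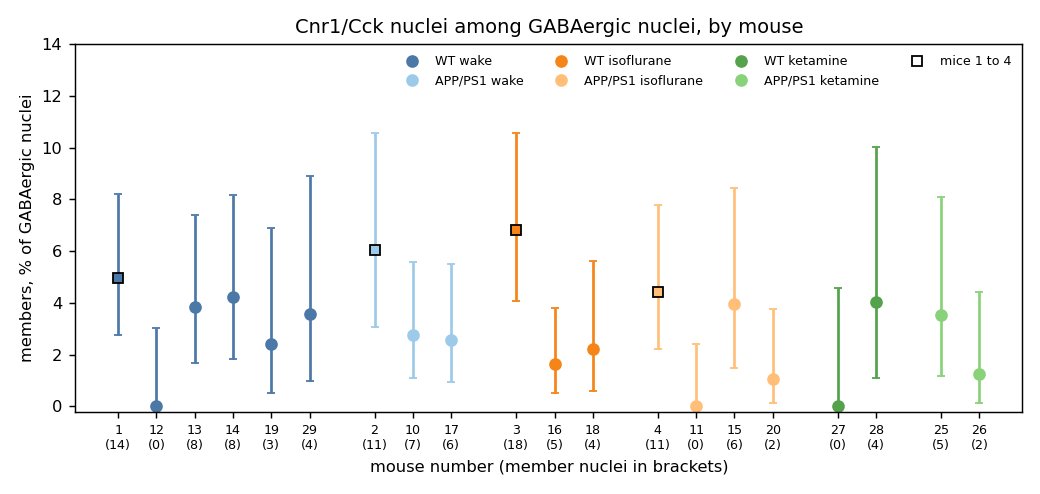
Members as a percentage of GABAergic nuclei in each of the 20 mice, by group, with exact binomial 95% intervals that cover counting error only; the number of members is in brackets under each mouse number. Shares are drawn without thinning, and 3 mice have none. The 4 highest, 4.44% to 6.82%, belong to mice 1 to 4 (squares). Thinned to 2000 UMIs these mice overlap the others, with a median of 2.79% against 1.38%.

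A member had 1606 to 47058 UMIs (median 4461.5) and 1132 to 7745 detected genes (median 2193.5). The median was 3396.5 UMIs in the other GABAergic nuclei and 3976.5 in excitatory nuclei. Within the rule, Cnr1 ran from 3 to 30 UMIs per member with a median of 7, and Cck from 1 to 22 with a median of 2. Cnr1 summed to 935 UMIs, or 1420 CPM, and Cck to 311 UMIs, or 472 CPM. Just inside the threshold, 13 members had exactly 3 UMIs of Cnr1, and all 13 also held Adarb2. Of these 13, 5 held the excitatory marker Slc17a7, at 246 CPM over the 13, against 16 of all 118 members at 60.8 CPM. Just outside, 29 nuclei met every other condition with 2 UMIs of Cnr1, and 27 of them (93.1%) held Adarb2, whereas of the 262 nuclei with no Cnr1 that met every other condition 53.4% did. For Cck, 58 members had exactly 1 UMI, and 136 nuclei missed only this condition, of which 133 held Adarb2.

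The label was checked against genes that the rule did not use. Adarb2, which encodes a catalytically silent relative of the RNA-editing enzymes and marks interneurons of the caudal ganglionic eminence, was detected in all 118 members at 11976 CPM (exact Poisson 95% interval 11714 to 12244, counting error only). Nuclei under 1500 UMIs, none of them a member, were then left out and the others thinned to 1500 UMIs. After this, 98.3% of the members held Adarb2 against 25.3% of excitatory nuclei. Excitatory nuclei should lack it and so give the background level, whose source was not tested. Slc32a1, the vesicular GABA transporter, was at 140 CPM in the members and 1.33 CPM in excitatory nuclei. Both sets were chosen on Gad1 and Gad2, so this difference was largely set by the choice and does not test the Cnr1/Cck label. The transcription factors Sox6 and Satb1, which mark the medial ganglionic lineage of parvalbumin and somatostatin cells, were at 4.56 and 48.6 CPM in the members and at 284 and 249 CPM in nuclei with Lhx6. Further genes of the caudal lineage were seen in part of the members, with a UMI of Npas1, a transcription factor, in 63 of the 118, of Nr2f2, a nuclear receptor, in 18 and of Prox1, a transcription factor, in 14. Adarb2, Sox6 and Satb1 thus place the members apart from the medial lineage, a difference partly set by the choice on Lhx6. They do not set them apart from interneurons with Vip, where Adarb2 was at 13469, Sox6 at 5.24 and Satb1 at 39.3 CPM, and Sox6 and Satb1 were also low in interneurons with Lamp5, at 7.03 and 31.7 CPM. The position of the synapse, by which a basket cell is defined, is not measured by these counts.

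For comparison, 3 classes of interneuron were taken from the same libraries, all with the same minimum of Gad1 and Gad2 and no glial UMI. The Vip class (105 nuclei) had at least 2 UMIs of Vip and none of Sst, Pvalb and Lhx6. The Lamp5 class (51 nuclei) had at least 2 UMIs of Lamp5 and none of Vip, Sst, Pvalb and Lhx6. It was taken as neurogliaform-like, which was not tested. The Lhx6 class (103 nuclei) had Lhx6 and at least 1 UMI of Sst or Pvalb, no Vip and at most 1 of Lamp5, and corresponds to the medial lineage with the parvalbumin basket cells. Median depth was 3266 UMIs in the Vip class, 4462 in the Lamp5 class and 5360 in the Lhx6 class.

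Several genes known for CCK basket cells had UMIs in subsets of the members. After thinning to 1500 UMIs, Npas1 was found in 23.7% of the members and 0.359% of excitatory nuclei (53.4% and 0.900% without thinning). Col19a1, a collagen gene, was found in 56.8% and 2.11% (73.7% and 5.00%), and Cxcl14, a chemokine gene, in 12.7% and 1.06% (33.1% and 2.36%). Synpr, the synaptic vesicle protein synaptoporin, was found in 39.8% of the members, 24.4% of excitatory nuclei, 87.2% of the Vip class and 45.1% of the Lhx6 class (64.4%, 39.0%, 89.5% and 65.0%), and so did not mark the members. Slc17a8, the vesicular glutamate transporter VGLUT3 that a subset of CCK basket cells uses beside GABA, had a UMI in 27 members (22.9%, exact binomial 95% interval 15.7% to 31.5%), which came from 16 mice. Htr3a, an ionotropic serotonin receptor subunit, had a UMI in 22 members (18.6%, 12.1% to 26.9%) from 9 mice. Sncg, a marker of this subclass in cortical atlases, had UMIs in 2 members.

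Slc17a8 stood out by its level. It was at 88.1 CPM in the members, and no UMI was counted in the Vip class (0 CPM, Poisson upper limit 9.66) or in the Lamp5 class (0 CPM, upper limit 13.0), with 4.75 CPM in the Lhx6 class and 0.253 CPM in excitatory nuclei. After thinning to 1500 UMIs, 11.0% of the members and 0% of the Vip, Lamp5 and Lhx6 nuclei held it. Htr3a was at 45.6 CPM in the members and 39.3 CPM in the Vip class, with no UMI in the Lamp5 or Lhx6 class. The 2 genes were found together in 2 members, Slc17a8 alone in 25 and Htr3a alone in 20, with neither in 71. Npas1 overlapped with both, being present in 13 of the 27 members with Slc17a8 and in 15 of the 22 with Htr3a, and Col19a1 in 24 of the 27. At this depth a nucleus without a UMI may still express the gene, so these counts do not separate subtypes. Calb1, the calcium-binding protein calbindin, had a UMI in 17 members, of which 3 also held Slc17a8.

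Excitatory RNA was detected in part of the members. Slc17a7, the vesicular glutamate transporter of pyramidal cells, was at 60.8 CPM in the members, 49.8 in the Vip class, 70.3 in the Lamp5 class and 36.4 in the Lhx6 class. Excitatory nuclei had 541 CPM, a level set by their choice on this gene. Of the members, 21 held at least 1 UMI of Slc17a7, Slc17a6 or Neurod6. The 16 members with Slc17a7 had a median of 6813.5 UMIs against 4241.5 in the rest, and Cnr1 at 601 CPM against 1728 CPM. The largest member, of mouse 14 with 47058 UMIs, held 10 UMIs of Slc17a7, 29 of Camk2a, 144 of Adarb2, 1 each of Gad1 and Gad2 and 10 of Cnr1. No caller of doublets was run, and the part of doublets and of free RNA in these values was not tested beyond leaving these nuclei out, as given with the results below.

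The endocannabinoid system was described by a list of 16 genes. Cnr1 itself was chosen by the rule. Mgll, the lipase that degrades the endocannabinoid 2-AG in the terminal, had a UMI in 58 members and stood at 176 CPM, with 141 in the Vip, 299 in the Lamp5 and 128 in the Lhx6 class. Faah, which degrades anandamide, was at 66.8 CPM (30 members), Dagla and Daglb, which make 2-AG, at 50.1 and 60.8 CPM (23 and 30 members), Abhd6, a further hydrolase, at 72.9 CPM (38 members), and Napepld, which makes anandamide, at 34.9 CPM (21 members). Cnrip1, which binds the tail of the CB1 receptor, was at 83.5 CPM. In excitatory nuclei Dagla was at 146 CPM and Faah at 132 CPM, and no test across mice was run on this difference. The second cannabinoid receptor gene Cnr2 and the further receptors Trpv1 and Gpr55 had no UMI in the members, and 0 of 118 members allows a share of up to 3.08% of nuclei with a UMI (exact binomial). Both receptors for the peptide were near 0 in the members too, with no UMI of Cckar and 1 of Cckbr.

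The members were then compared with each other class within mice, by summing the counts of each class in each mouse and testing the sums with edgeR with the mouse as a block. Each of the 3 comparisons uses the same member nuclei, so a gene found in several of them is not independent evidence, and the genes of the rule received no test. A gene was called at an edgeR adjusted p under 0.05 over all genes tested. A gene could pass the filter on low counts through either class alone, and the gene lists were chosen with earlier results known. Tallies by list are therefore a description. In the class comparisons, overlap of ranges is given only for genes picked by fold change or list. The share of non-overlapping genes over all genes tested is not given there, so these statements are a description too.

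Against the Vip class, the members had more RNA of Col19a1, Sgcd and Ntng1 and less of Gpc6, Egfr, Grm7 and Grm8. In 12 mice with at least 3 nuclei of both classes (97 members and 85 Vip nuclei), 78 of 1032 genes tested were higher in the members (7.56%) and 94 were lower (9.11%). Col19a1 was at 446 CPM in the lowest, 937 in the median and 4793 in the highest mouse in the members, and at 0, 144 and 315 in the Vip class. The members were higher in 12 of 12 mice and the ranges did not overlap (log2 fold change 2.92 ± 0.37 SE, edgeR adjusted p = 6.35e-06). Sgcd, which encodes delta-sarcoglycan, a membrane protein of the dystrophin complex, behaved the same way, with 1085, 1564 and 6903 CPM against 31.5, 159 and 911 CPM (3.07 ± 0.35, edgeR adjusted p = 3.25e-06).

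Ntng1, encoding the axonal adhesion protein netrin-G1, was higher in the members in 11 of 12 mice (3.67 ± 0.55), at 725 ± 729 CPM against 54.5 ± 82.2 CPM (SD, n = 12). Ptprm, a receptor phosphatase (2.50 ± 0.35), Pag1, a membrane adaptor of Src kinases (2.55 ± 0.50), Sgcz, zeta-sarcoglycan (2.24 ± 0.42), Tafa1, a secreted peptide of the nervous system (2.18 ± 0.47), and Ralyl, an RNA-binding protein (2.16 ± 0.38), completed the named genes with the largest differences, together with 2 predicted genes. Of these, Gm49678 differed by 4.23 ± 0.79, and Gm32647 had 49 UMIs in the members and none in the Vip class, at least 9.04-fold higher against 3 counts over the class.

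The largest difference in the other direction was that of Gpc6, a glypican of the cell surface, at 0, 6.46 and 235 CPM in the members (lowest, median and highest mouse) and 253, 545 and 1822 CPM in the Vip class, with no overlap (-3.78 ± 0.37, edgeR adjusted p = 3.02e-07). Grm7, a presynaptic metabotropic glutamate receptor, ran from 0 to 1003 CPM in the members and from 1172 to 2685 CPM in the Vip class, again without overlap (-2.42 ± 0.29, edgeR adjusted p = 4.52e-06). Its relative Grm8 was lower in 12 of 12 mice (-3.01 ± 0.38), as were Egfr, the epidermal growth factor receptor (-3.45 ± 0.46), and the cadherin genes Pcdh15 (-2.20 ± 0.35) and Cdh10 (-2.14 ± 0.32). Nos1, neuronal nitric oxide synthase (-3.15 ± 0.85), Zfp804a (-2.28 ± 0.33), March1 (-2.04 ± 0.37) and the serotonin receptor gene Htr4 (-2.03 ± 0.61) were the other named genes.

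By list, 14 of 30 modulatory and glutamate receptor genes were tested against the Vip class, 1 was higher (Gria3, an AMPA receptor subunit, 1.10 ± 0.30) and 4 were lower (Grm7, Grm8 and the kainate receptor subunits Grik1 and Grik2, at -1.18 ± 0.41 and -0.60 ± 0.18), with a median of -0.27 against 0.04 over all genes tested. Among 6 tested of 14 GABA-A receptor subunit genes, 2 were lower, among them Gabrg3 (-1.36 ± 0.34), and none was higher, with a median of -0.48. Of 6 tested genes for peptide processing, Pam, which amidates peptides such as CCK (-1.21 ± 0.28), and Scg5, a chaperone of a prohormone convertase (-0.71 ± 0.21), were lower. Synpr (-1.38 ± 0.29), Erbb4, the neuregulin receptor of interneurons (-1.44 ± 0.18), and Plcb1, a phospholipase that acts upstream of 2-AG synthesis (-1.13 ± 0.25), were lower too. Nxph1, a secreted ligand of neurexins (1.87 ± 0.50), Reln, which encodes the matrix protein reelin (1.55 ± 0.43), and Grin2a, an NMDA receptor subunit (1.04 ± 0.35), were higher. Adarb2 did not pass (-0.09 ± 0.17), and none of the 9 tested genes of the GABA release machinery did. Without mice 1 to 4, 59 genes were called against the Vip class, and with members of at least 5 UMIs of Cnr1 109 were.

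Against the Lamp5 class, the members had more RNA of Rgs12, Cadps2, Col19a1, Synpr and Adarb2 and less of Nxph1, Ptprt and Gabrg3. In 7 mice (75 members and 40 Lamp5 nuclei), 64 of 1098 genes tested were higher in the members (5.83%) and 53 were lower (4.83%). Rgs12, a regulator of G-protein signalling (4.31 ± 0.67, edgeR adjusted p = 0.000555), and Cadps2, a priming factor of dense-core vesicles (4.10 ± 0.73, edgeR adjusted p = 0.00174), were each higher in 7 of 7 mice. Cadps2 ran from 389 to 1756 CPM in the members and from 0 to 465 in the Lamp5 class, with a median of 0, and the ranges overlapped.

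Sdk1, a synaptic adhesion gene (3.32 ± 0.51), Thsd7a (3.26 ± 0.50), Cacna2d3, a calcium channel subunit (2.97 ± 0.42), Pdzrn3, a ubiquitin ligase (2.88 ± 0.50), and the long non-coding 9530059O14Rik (3.31 ± 0.39) and Gm32509 (3.41 ± 0.62) were higher with no overlap between the classes. Npas3, a transcription factor (3.26 ± 0.69), and Tafa1 (3.15 ± 0.68) were higher in 7 of 7 mice with overlapping ranges. Of the 14 listed basket-cell genes outside the rule only 3 passed the filter on low counts. All 3 were higher, namely Col19a1 (2.87 ± 0.33), Synpr (2.81 ± 0.54) and Adarb2 (1.96 ± 0.27), against a median of 0.04 over all genes tested. Col19a1 and Synpr had few counts in the Lamp5 class (26 and 17 UMIs) and passed mainly through the members. This tally was thus largely set by the filter. Against the Vip class 3 of the list were tested too, of which Col19a1 was higher and Synpr lower, with a median of -0.09. Adarb2 ran from 6466 to 19747 CPM in the members and from 1235 to 7855 CPM in the Lamp5 class, so that the ranges overlapped although every mouse was higher in the members. Igf1, the growth factor (1.87 ± 0.48), Chrm3, a muscarinic acetylcholine receptor (1.80 ± 0.35), and Kcnc2, a fast potassium channel (1.28 ± 0.35), were higher as well.

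In the other direction, Nxph1 was at 74.3 to 326 CPM in the members and 1375 to 4117 CPM in the Lamp5 class, with no overlap (-3.41 ± 0.32, edgeR adjusted p = 1.24e-05). The receptor phosphatase Ptprt was separated likewise, at 44.9 to 220 CPM against 714 to 1647 CPM (-2.93 ± 0.33). Lower genes also included Hcrtr2, an orexin receptor (-3.49 ± 0.74), Sv2c, a vesicle protein (-3.48 ± 0.75), Hapln1, a link protein of the matrix (-3.41 ± 0.79), the transcription factor Tox (-3.36 ± 0.58), Egfr (-2.99 ± 0.59), Gm15398 (-2.94 ± 0.67), Crispld1 (-2.92 ± 0.85) and the phosphodiesterase Pde11a (-2.68 ± 0.38). Of the 8 listed Lamp5 and ivy genes 2 were tested, of which Sv2c was lower and Reln did not pass (-1.21 ± 0.59, edgeR adjusted p = 0.252).

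Of the 14 tested receptor genes of the modulatory and glutamate list, Chrm3 was higher and Grik1 (-1.52 ± 0.36), the adrenergic receptor gene Adra1a (-1.50 ± 0.35), the metabotropic receptor gene Grm5 (-0.96 ± 0.24) and the AMPA receptor subunit Gria1 (-0.77 ± 0.24) were lower in the members than in the Lamp5 class, with a median of -0.23. The GABA-A subunit genes Gabrg3 (-2.22 ± 0.29, 144 to 1092 CPM against 1428 to 3870 CPM) and Gabrb2 (-1.06 ± 0.28) were lower, as were Erbb4 (-1.24 ± 0.26), Pam (-1.20 ± 0.32), Grin2a (-1.14 ± 0.28) and Plcb1 (-1.08 ± 0.26). The 2 tested excitatory markers had a median of 1.07 and neither passed. This comparison leaned on mice 1 to 4, without which 8 genes were called, and on mouse 1 or mouse 2 alone, without which 69 or 67 were called.

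Against the Lhx6 class, the members had more RNA of Adarb2, Frem1, Cadps2 and Npas1 and less of Crhbp, Sox6, Nxph1 and Satb1. In the 4 mice with at least 10 nuclei of both classes (mice 1 to 4, 54 members and 54 Lhx6 nuclei), 92 of 1957 genes tested were higher in the members (4.70%) and 90 were lower (4.60%). Adarb2 was at 8647, 10314 and 11510 CPM in the members (lowest, median and highest mouse) and 0, 22.1 and 263 CPM in the Lhx6 class (7.37 ± 0.58, edgeR adjusted p = 4.32e-05). Frem1, a gene of the extracellular matrix, had 54 UMIs in the members and none in the Lhx6 class, at least 19.3-fold higher against 3 counts over the class. In all 4 mice the members were also higher in Cadps2 (4.90 ± 0.70), Tafa1 (4.84 ± 0.62), Rgs12 (4.55 ± 0.65), Sorcs1, a sorting receptor (4.43 ± 0.63), Ntng1 (3.96 ± 0.53), Npas1 (3.50 ± 0.51), Pdzrn3 (3.43 ± 0.47) and Cxcl14 (3.38 ± 0.60), with no overlap in these 8 genes. Of the basket-cell list 5 genes were tested, of which Adarb2, Npas1 and Cxcl14 were higher. Col19a1 (0.97 ± 0.29, edgeR adjusted p = 0.0601) and Synpr (-0.09 ± 0.24) did not pass. Npas1 and Cxcl14 had 6 and 5 UMIs in the Lhx6 class, and so passed the filter mainly through the members.

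Crhbp, which binds corticotropin-releasing hormone and is known from somatostatin cells, had no UMI in the members of these mice and 55 in the Lhx6 class, at least 17.1-fold lower in the members. Sox6 (-5.39 ± 0.71, 1 UMI against 81), the cation channel Trpc6 (-4.86 ± 0.56), the guidance factor Slit2 (-4.71 ± 0.88), Olfm3 (-4.31 ± 0.47), Il1rapl2 (-4.23 ± 0.60), Gpc6 (-4.12 ± 0.59), Tox (-3.25 ± 0.82), Gm15398 (-3.09 ± 0.60) and Rnf144b (-3.05 ± 0.60) were lower in 4 of 4 mice without overlap. Of the 7 tested genes of the medial lineage list, 4 were lower (Sox6, Nxph1 at -2.95 ± 0.28, Satb1 at -1.97 ± 0.30 and Kcnc2 at -1.14 ± 0.31) and none was higher, with a median of -1.97 against 0.02 over all genes tested. Lhx6, Sst and Pvalb, which defined that class, are not counted. The members were chosen to lack these genes, so the tally was largely set by the choice of both classes. Sox6 passed the filter mainly through the Lhx6 class.

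Receptor genes differed in both directions. Of 16 tested in the modulatory and glutamate list, 6 were lower than in the Lhx6 class (among them Grik3 -2.41 ± 0.55, Gria3 -2.10 ± 0.31, Grm7 -1.78 ± 0.27, Gria1 -1.57 ± 0.24 and Grm5 -1.41 ± 0.23) and 1 was higher, the mineralocorticoid receptor gene Nr3c2 (1.45 ± 0.37), with a median of -0.77. Gria1 ran from 1018 to 1421 CPM in the members and from 2621 to 5756 CPM in the Lhx6 class. The NMDA receptor subunit Grin3a (-1.83 ± 0.32), Pam (-1.75 ± 0.25), the secreted neuropeptide precursor Vgf (-1.60 ± 0.37), the P/Q-type calcium channel Cacna1a (-1.38 ± 0.25) and Plcb1 (-1.12 ± 0.25) were lower. The GABA-A subunits Gabra2 (1.61 ± 0.36) and Gabrb1 (0.94 ± 0.24), the release regulator Cplx2 (2.07 ± 0.53), Igf1 (1.94 ± 0.38), the glucocorticoid-responsive Zbtb16 (1.57 ± 0.38), the prohormone convertase Pcsk2 (1.37 ± 0.37) and the long non-coding Dlx6os1 (1.29 ± 0.35) were higher. With at least 3 nuclei of both classes, 11 mice entered (96 members and 90 Lhx6 nuclei) and 261 of 1521 genes were called, 132 higher and 129 lower, and 72 of the 92 higher and 74 of the 90 lower genes were called again. Of the genes named above, Tafa1 (1.68 ± 0.73, edgeR adjusted p = 0.135), Vgf (-1.11 ± 0.48, edgeR adjusted p = 0.137) and Gabrb1 (0.76 ± 0.36, edgeR adjusted p = 0.187) were not among them, and Tox and Cplx2 were not tested there. In the 4 mice the number of calls fell to 19 with members of at least 5 UMIs of Cnr1, and to 97, 86 and 116 without mouse 1, 2 and 4.

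**Figure D2:**
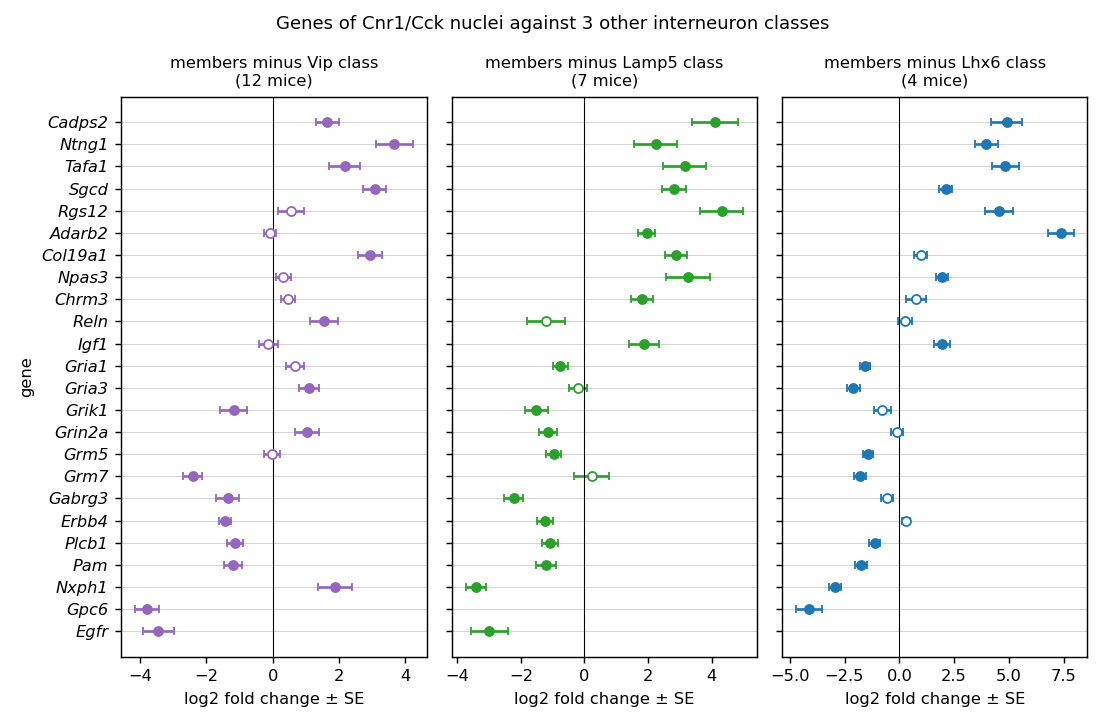
Log2 fold change ± SE (edgeR, mouse as a block) of 24 genes in the members against the Vip class (12 mice), the Lamp5 class (7 mice) and the Lhx6 class (4 mice); filled circles passed an adjusted p under 0.05, open circles did not, and no circle is drawn where a gene was not tested. Cadps2, Ntng1 and Sgcd are filled and to the right in all 3 panels, and Plcb1 and Pam filled and to the left.

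Set side by side, each comparison's own values show where the members differed. Of 857 genes tested against all 3 classes, 8 were called higher in the members each time and 4 lower. Besides those given next, these were Tafa1, Col25a1, Necab1, Trpm3 and 9530059O14Rik, and, lower, Pcdh15 and Gm15398. Cadps2 differed by 1.64 ± 0.34, 4.10 ± 0.73 and 4.90 ± 0.70 against the Vip, Lamp5 and Lhx6 classes, Ntng1 by 3.67 ± 0.55, 2.24 ± 0.68 and 3.96 ± 0.53, and Sgcd by 3.07 ± 0.35, 2.80 ± 0.37 and 2.12 ± 0.29, all called. Plcb1 differed by -1.13 ± 0.25, -1.08 ± 0.26 and -1.12 ± 0.25, and Pam by -1.21 ± 0.28, -1.20 ± 0.32 and -1.75 ± 0.25, also called each time. Erbb4 was lower against the Vip and Lamp5 classes and did not pass against the Lhx6 class (0.30 ± 0.20), and Nxph1 was higher against the Vip class and lower against the others. Mitochondrially encoded genes did not pass in any of the 3, with medians over 8 tested genes of 0.31, 0.12 and 0.13.

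The genes whose levels were most like those of Cnr1 and Cck were sought over 47 sums of 1 class in 1 mouse, among 2065 genes, by Spearman correlation. For Cnr1 these were Adarb2 (0.84), Cadps2 (0.84), Rgs12 (0.82), Npas3 (0.79) and Frem1 (0.77), and for Cck they were Frem1 (0.72), Cadps2 (0.69), the chaperone gene Hspa5 (0.67), Rgs12 (0.66) and Plppr1, a lipid phosphatase relative (0.65). Sums of the same mouse share a library, and the member sums were chosen to be high in both genes, so these values are a description.

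Anesthesia was compared with wake across mice. Isoflurane did not change any gene past the threshold in the members. Sums of the members were tested in the 15 mice with at least 3. These were 5 WT and 3 APP/PS1 awake, 3 WT and 2 APP/PS1 under isoflurane, and 1 of each genotype under ketamine. A single edgeR fit held a mean for each group of state and genotype. None of 1505 genes was called in either direction (0%), 108 had an unadjusted p under 0.05, and DESeq2 called 5, all lower. On simulated counts with the same mice, 20.0% of genes changed 2-fold and 80.0% of genes changed 4-fold were recovered. Differences of 2-fold were thus mostly not detectable at this depth. The simulation gave every gene the same fixed spread and did not copy the spread of the real genes, so real recovery may be lower. In the real fit Mir670hg, at a log2 fold change of -4.15 ± 0.79, was not called.

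The levels of Cnr1 and Cck across states are a description, since the rule set their minimum. Cnr1 was at 669, 1738 and 2340 CPM in the wake mice (lowest, median and highest, n = 8), 1161, 1348 and 1751 under isoflurane (n = 5), and 864 and 1412 in the 2 ketamine mice. Cck was at 198, 405 and 897 CPM awake, 257, 336 and 938 under isoflurane, and 361 and 523 under ketamine. The ranges of the states overlapped for both genes.

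The genes nearest to the threshold under isoflurane were named after their values were seen. Mir670hg, the long non-coding host transcript of a microRNA (chr2:94160636-94264918, GRCm38), was at 86.7, 180 and 374 CPM in the wake mice and at 0, 0 and 58.6 CPM under isoflurane, where 3 of 5 mice were at 0. The ranges did not overlap, with 66 UMIs awake and 4 under isoflurane (-4.15 ± 0.79, edgeR adjusted p = 0.0803). In the other GABAergic nuclei of the same states it was at 60.9 to 128 CPM awake and 47.2 to 144 CPM under isoflurane, which did overlap. All 3 isoflurane mice at 0 were WT. The 2 APP/PS1 isoflurane mice in the fit held 25.8 and 58.6 CPM (interaction 3.86 ± 1.71, not called). The 2 ketamine mice were also low, at 0 and 47.1 CPM (-3.98 ± 1.31, not called).

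Dlx6os1, a long non-coding RNA antisense to the interneuron transcription factor gene Dlx6 (chr6:6820189-6871592), was at 471, 996 and 1697 CPM awake and 168, 234 and 442 CPM under isoflurane, without overlap (-1.74 ± 0.36, edgeR adjusted p = 0.0803). The other GABAergic nuclei had 218 to 546 CPM awake and 114 to 239 CPM under isoflurane. In the 2 ketamine mice the members had 408 and 471 CPM of Dlx6os1 (-1.02 ± 0.48, not called). Egfem1, a protein-coding gene with growth-factor-like domains, was at 1478 to 2757 CPM awake and 234 to 1216 CPM under isoflurane (-1.27 ± 0.32, edgeR adjusted p = 0.245). Mouse 20, also under isoflurane but with 2 members and hence outside the fit, had 619 CPM of Dlx6os1 (3 UMIs), 2064 CPM of Egfem1 (10 UMIs) and no UMI of Mir670hg, so the first 2 of these values lay within the wake range. Ctnna3, an alpha-catenin (-1.79 ± 0.39, edgeR adjusted p = 0.106), and Dlx1as (-1.93 ± 0.46, edgeR adjusted p = 0.184) missed the threshold too. Several of these genes passed under other settings. DESeq2 called Mir670hg, Dlx6os1, Egfem1 and Ctnna3 along with Kctd16, members of 20000 UMIs or less and the fit without mouse 14 each called Mir670hg, Dlx6os1 and Dlx1as, and a minimum of 1 member per mouse called Mir670hg, Dlx6os1 and Ctnna3. Mir670hg alone was called with no filter on low counts, and Egfem1 alone without mouse 4. Over all 1505 genes, 6 did not overlap and were lower under isoflurane (0.399%), namely Mir670hg, Dlx6os1, Egfem1, Fmn1, Osbpl3 and Otud7a, and Pcdh15 did not overlap and was higher (0.0664%).

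Whether isoflurane acted differently in the members than in the other GABAergic nuclei was tested directly. In the 4 mice with at least 10 members (2 awake, 2 under isoflurane), with the mouse as a block, 3 of 9094 genes had a higher isoflurane minus wake difference in the members (0.0330%) and 6 a lower one (0.0660%). The 3 were Npy, Maml2 and Clstn2, and the 6 were Nrg1, Pde1c, Scn9a, Mir670hg, Tcerg1l and Zfp804b. With 2 mice per state these calls rest on a spread shared over genes, not on how each gene varied between mice. Nrg1, the ligand of Erbb4, had 598 and 1022 CPM in the members of the 2 wake mice and 95.02 and 271 CPM in the 2 isoflurane mice, where the other GABAergic nuclei had 386 and 304 against 283 and 345 CPM. DESeq2 called none of the 9094 genes, and none was called in the 15 mice with at least 3 members. There Nrg1 had -0.99 ± 0.48 against -2.11 ± 0.42 in the 4 mice, with 0 and 143 CPM in the members of wake mice 10 and 17, Mir670hg had -3.06 ± 0.71 (edgeR adjusted p = 0.127) and Dlx6os1 had -0.40 ± 0.42.

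Under ketamine 1 gene rose (0.0664% of those tested) and none fell, with 99 at an unadjusted p under 0.05. Gm42418, a long non-coding gene that contains a ribosomal RNA-like sequence (chr17:39846958-39848788), differed by 2.65 ± 0.47 (edgeR adjusted p = 0.0302), and DESeq2 called the same gene. It was at 12044 CPM in mouse 25 and at 1255 CPM in the second ketamine mouse, and the wake mice had 161 to 1398 CPM, so that in the fit 1 mouse set the difference. Mouse 26, also under ketamine but with 2 members and hence outside the fit, had 3613 CPM (30 UMIs), above every wake mouse. Mouse 25 had 3702 CPM in its other GABAergic nuclei and 3808 CPM in its excitatory nuclei, and across the 4 ketamine mice the other GABAergic nuclei ran from 794 to 3888 CPM against 288 to 1065 CPM awake. The call was lost without any 1 of mice 1, 2, 4, 10, 13, 15, 17 or 29 and without mice 1 to 4. It was also lost with members of no excitatory-marker UMI or of at least 5 UMIs of Cnr1, and with a minimum of 1 member per mouse. The groups compared alone and the run of mouse numbers (mice 1 to 4 as 1 run) as a term lost it too. The ketamine mice share their run with wake mouse 29 alone, so with that term state and run can hardly be told apart.

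**Figure D3:**
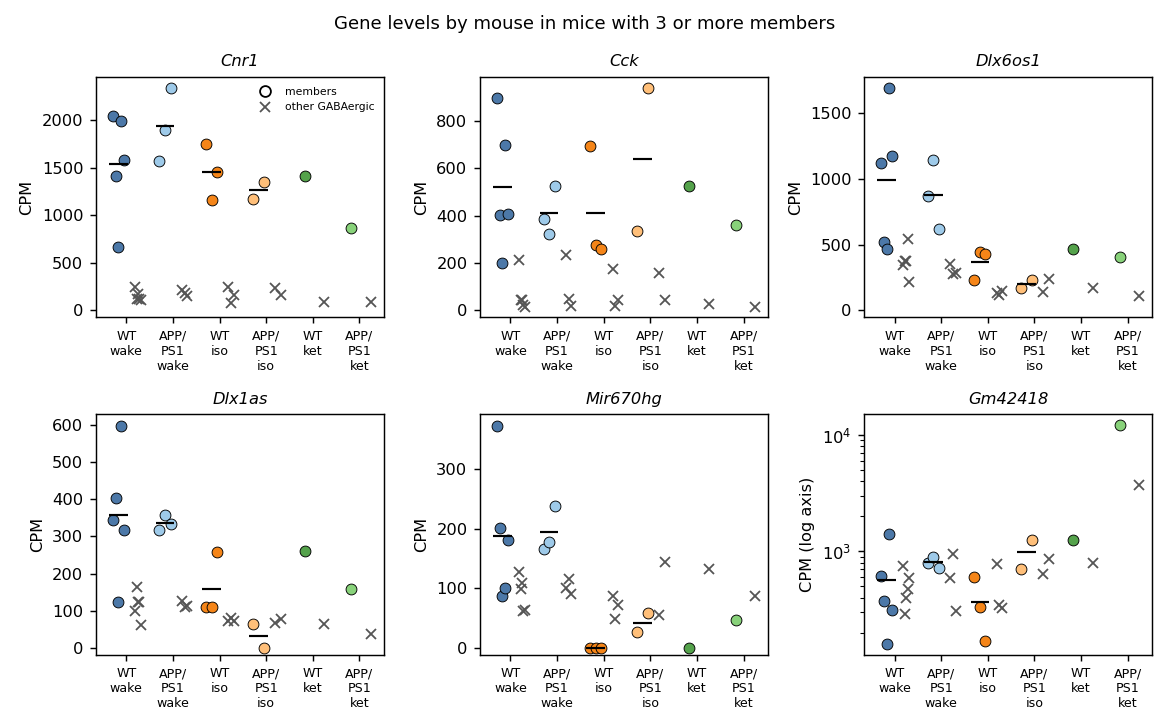
Level of 6 genes in the members (circles, 1 per mouse with at least 3 members) and in the other GABAergic nuclei of the same mouse (crosses), in CPM by group; bars are group means of the members, and the axis of Gm42418 is logarithmic. Dlx6os1 and Mir670hg do not overlap between the wake and isoflurane mice drawn, and among the mice drawn the members of mouse 25 are highest in Gm42418; mice with fewer than 3 members, mouse 26 among them, are not drawn.

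Genotype gave no call by edgeR. The contrast gave each state equal weight, and its ketamine part was mouse 25 against mouse 28, 1 mouse of each genotype. Gm42418 was at 12044 CPM in mouse 25 and 1255 CPM in mouse 28. By edgeR none of 1505 genes differed between mice labelled APP/PS1 and WT (0% in each direction). Before adjustment 100 genes had p under 0.05, and DESeq2 called 1, again Gm42418. For the interaction of genotype and isoflurane edgeR called none as well (0% in each direction), 52 genes had p under 0.05 before adjustment, and DESeq2 called 0.

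None of the 18 gene lists held a gene called by edgeR under isoflurane, whereas Dlx6os1, of the list of GABAergic genes, was called by DESeq2 and under the other settings named above. Of the GABA-A receptor subunits, a target of isoflurane, 5 of 14 were tested, with a median of -0.21 against 0.02 over all genes tested. Of the NMDA receptor subunits, the target of ketamine, 3 of 7 were tested, with a median of -0.04 under ketamine against -0.18 over all genes tested, and Grin2b had -0.13 ± 0.44. The 4 tested endocannabinoid genes had a median of -0.07 under isoflurane and 0.36 under ketamine, with Mgll at -0.28 ± 0.41 and 0.23 ± 0.53. The 13 tested genes of the GABA release machinery had medians of 0.26 and -0.12, with Slc32a1 at 1.26 ± 0.45 and -1.22 ± 0.88 and none past the threshold.

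Activity-regulated and clock genes had few counts in the members. In the fit of state and genotype over the members, none of the 38 listed immediate-early and activity-regulated genes and none of the 16 clock genes passed the filter on low counts. In the test of the isoflurane difference between members and other GABAergic nuclei, 14 and 13 of them were tested and none was called. Their medians were 0.72 and 0.26 against 0.01 over all genes tested. They passed the filter through the deeper sums of the other nuclei, so these values say little about the members. All 38 together had 137 UMIs in the 8 wake mice, 112 in the 5 isoflurane mice and 35 in the 2 ketamine mice, and their summed level ran from 200 to 583 CPM awake, from 276 to 1143 CPM under isoflurane and was 209 and 487 CPM under ketamine, with overlapping ranges.

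Markers of other cells overlapped between the states. The summed level of 12 excitatory markers in the members was 200 to 1499 CPM awake, 300 to 1627 under isoflurane and 366 and 817 under ketamine, and that of 15 glial and vascular markers was 115 to 716, 276 to 381 and 377 and 471 CPM. Mitochondrially encoded genes varied more, from 99.1 to 7075 CPM awake and 608 to 16181 CPM under isoflurane, with 47.1 and 157 CPM (6 UMIs) under ketamine, and their highest levels were in mice 1 to 4, which hold no ketamine mouse. The part of these differences in the comparisons of state was not tested.

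The share of members among GABAergic nuclei overlapped between states and genotypes, and no test of a difference passed. Because deeper nuclei reach the minimum of Cnr1 more easily, nuclei under 2000 UMIs were left out and the others thinned to 2000 UMIs. This left 30 members among 1590 GABAergic nuclei. Their share was 1.99% ± 1.88 awake (SD, n = 9), 1.37% ± 1.28 under isoflurane (n = 7) and 1.15% ± 1.33 under ketamine (n = 4). Isoflurane minus wake was -0.62 percentage points (exact permutation test, two-sided, p = 0.472, adjusted over 3 comparisons 0.860), and ketamine minus wake was -0.85 (exact permutation p = 0.573, adjusted 0.860). Mice labelled APP/PS1 had 1.65% ± 1.44 (n = 9) and WT mice 1.57% ± 1.72 (n = 11), a difference of 0.078 (exact permutation p = 0.915).

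Without thinning the shares were 0%, 3.57% and 6.04% awake (lowest, median and highest mouse), 0%, 2.23% and 6.82% under isoflurane and 0%, 2.39% and 4.04% under ketamine, with overlapping ranges. The differences were then -0.50 (exact permutation p = 0.628), -1.17 (exact permutation p = 0.299) and -0.22 (exact permutation p = 0.806).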

How the data were processed

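The authors deposited raw UMI counts per gene and nucleus, 1 library per mouse, as whole numbers without normalization. The file header names Cell Ranger 5.0.0. The methods add included introns, the mm10 genome, removal of free RNA with CellBender, a minimum of 200 genes per nucleus and DoubletFinder; whether the deposited counts are those after CellBender is not given in the sources used here. No deposited nucleus had under 200 genes. The methods describe tissue processed in batches of 4, which the labels do not assign to mice. Brains were taken after decapitation in the methods and after perfusion in the labels. Replicates are mice.

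The members and the gene lists were chosen with earlier results of these data known. Counts of the chosen nuclei were summed per mouse and class and tested in R 4.3.3 with edgeR 4.0.16 (TMM scaling and its filterByExpr rule, then the quasi-likelihood test, with p adjusted by Benjamini-Hochberg over all genes and a threshold of 0.05). Across mice the fit held a mean for each group of genotype and state. State, genotype and their interaction were contrasts of these means, with equal weight for each state in the genotype contrast. Between classes the mouse was a block. The planned minimum of 10 nuclei per mouse left too few mice except for the Lhx6 comparison and the test of the isoflurane difference between the members and other GABAergic nuclei, so a minimum of 3 was used elsewhere, a change made after seeing the counts of nuclei. Shares were compared as differences of mean percent, because mice with a share of 0 have no logarithm, with exact permutation tests (SciPy 1.17.1). CPM are counts per 1000000 summed UMIs. Intervals are exact at 95% and cover counting error only. Positions are from GENCODE for GRCm38.

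Named genes were the rule's 13 genes, in each class comparison the 10 called genes with the largest fold change in each direction and a mean of at least 50 CPM in the higher class, genes of the 18 lists that were called, the 10 called with the smallest adjusted p per state comparison, and the 5 genes most like Cnr1 and Cck. Further genes of the lists, and genes called under the alternatives, are given as a description outside this rule. The genes nearest to the threshold under isoflurane are said to have been named after their values were seen. Some called genes are not reported here. The fits were tested on simulated counts with 200 changed genes and the same fixed spread for every gene. At 4-fold, 85.0% were recovered in the Vip, 84.0% in the Lamp5 and 74.0% in the Lhx6 comparison. At 2-fold these were 67.0%, 36.0% and 9.0%. Real genes can vary more, so these shares may be too high. Alternatives were DESeq2 1.42.0, no filter on low counts, at least 5 UMIs of Cnr1, nuclei without excitatory-marker UMIs, the run of mouse numbers as a term, the groups compared alone, other depths of thinning, all nuclei as denominator and each mouse left out. Those on very large nuclei (over 20000 UMIs), other minima of nuclei, and the class comparisons without mice 1 to 4 were chosen after seeing the data.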

Additional observations from a re-analysis of the deposited data

Results flagged for a closer look

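In the 4 mice with at least 10 members, 9 genes differed between the members and the other GABAergic nuclei in their isoflurane difference (edgeR, mouse as a block, 1 residual degree of freedom, adjusted p under 0.05). The p took a spread shared over genes, with few mice per state, and so does not measure how each gene varied between mice. The difference of differences on the log2 scale was 4.44 ± 0.99 (SE) for Maml2, a coactivator of Notch signalling, 3.38 ± 0.73 for Npy, neuropeptide Y, and 1.82 ± 0.45 for Clstn2, a synaptic adhesion gene. It was -3.81 ± 0.82 for the phosphodiesterase gene Pde1c, -3.61 ± 0.82 for Mir670hg, -3.12 ± 0.73 for Tcerg1l, -2.33 ± 0.50 for the sodium channel gene Scn9a, -2.15 ± 0.53 for Zfp804b and -2.11 ± 0.42 for Nrg1.

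Of the 23 Npy UMIs in the members of the 2 isoflurane mice, 20 came from mouse 4, and of the 25 Maml2 UMIs 19 did. In the 15 mice with at least 3 members none of the 9 passed. Maml2 then had -0.07 ± 0.52, Npy 1.53 ± 0.70, Pde1c -2.64 ± 0.65 (edgeR adjusted p = 0.201) and Mir670hg -3.06 ± 0.71 (edgeR adjusted p = 0.127). The share of members in the awake WT and the APP/PS1 isoflurane mice, with and without thinning, and the levels of 11 genes in the awake WT mice were also examined for a single mouse far from its group, 15 sets in all, and none passed the limit. Groups of fewer than 4 mice, among them the ketamine mice, could not be examined in this way.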

How the results depend on the processing

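Of the alternatives tried, 146 were counted as leaving a value the same, 37 moved it and 14 turned its sign, and the cause was not tested. A count of genes was the same if it stayed within 1.5 times, and 0 against 0 was included. A share was the same if it kept its sign and its side of the threshold for adjusted p, whatever its size. The 146 therefore do not measure how stable the size of a share was. For isoflurane, where edgeR called 0 genes, DESeq2 called 5, no filter on low counts 1, a minimum of 1 member per mouse 3 and members of 20000 UMIs or less 3, and leaving out 1 mouse gave 0 to 3 (1 without mouse 4, 3 without mouse 14). For ketamine no filter gave 6 genes, 4 of them mitochondrially encoded and lower. The count was 0 with the groups compared alone, Cnr1 of at least 5, no excitatory-marker UMI, the run of mouse numbers as a term, without mice 1 to 4 and with a minimum of 1 member, and 0 to 1 with 1 mouse left out. For genotype DESeq2 and no filter called 1 each, and leaving out 1 mouse gave 0. The genotype by isoflurane interaction gave 3 genes with no filter and 0 with 1 mouse left out. The isoflurane difference in the members against other GABAergic nuclei was called in 0 genes by DESeq2, 5 with no filter and 0 with a minimum of 3 members.

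Against the Vip class 109 genes were called with Cnr1 of at least 5, 59 without mice 1 to 4, and 130 to 173 with 1 mouse left out. No filter turned the split to 103 higher and 71 lower. Against the Lamp5 class 8 were called without mice 1 to 4 and 67 to 140 with 1 mouse left out, and no filter gave 122 higher and 38 lower. Against the Lhx6 class DESeq2 called 112, Cnr1 of at least 5 gave 19, and leaving out 1 mouse gave 86 to 167 (97 without mouse 1, 86 without mouse 2, 116 without mouse 4).

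The share, in percentage points, turned sign when thinned to 1000 UMIs (isoflurane 0.39, APP/PS1 -0.25) or 3000 (ketamine 0.54, APP/PS1 -1.03), and for APP/PS1 without thinning (-0.22) and over all nuclei (-0.011). With 1 mouse left out it was -0.94 to -0.19 for isoflurane, -1.30 to -0.42 for ketamine and -0.24 to 0.46 for APP/PS1. No value could be had for the planned minimum of 10 nuclei across mice and against the Vip and Lamp5 classes, for ketamine and genotype without mouse 25 or 28, for the ketamine share thinned to 1000 UMIs, for log2 shares, for nuclei without excitatory-marker UMIs against the Lhx6 class, and for the isoflurane difference between classes without such nuclei, without mice 1 to 4 or with 1 mouse left out. No paired analysis was possible because each mouse number occurs in 1 group only. The run of mouse numbers, with mice 1 to 4 as 1 run, was fitted as a term across mice, and it left 0 genes called for isoflurane, ketamine, genotype and the interaction. The runs were mice 1 to 4, 10 to 13, 14 to 17, 18 to 20 and 25 to 29. The ketamine mice shared theirs with wake mouse 29 alone, so the ketamine result with this term rests on that mouse. Mouse numbers 10 to 20 are unbroken and the labels name no batch. The cuts after mice 13 and 17 were therefore assumed, and this term may not follow the real batches. Comparisons between classes had the mouse as a block. Depth limits every comparison across mice, since 15 mice gave 3 to 18 members each.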
